A study of Mus musculus with 6 samples.

Results

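Globin and erythroid genes were read in RNA from a myeloid cell preparation of the mouse heart, where they trace red cell RNA. The list held 8 genes: Hba-a1 and Hba-a2 for alpha-globin, Hbb-bs and Hbb-bt for beta-globin, and Alas2, Slc4a1, Ahsp and Bpgm. Of these, 7 were matched by symbol among 55487 gene identifiers, and Ahsp was not analysed here. The genes were chosen by their measured levels, because 1 pool was already known to hold far more globin RNA than the others. The levels of that pool, WT replicate 1, and the genotype contrast that includes it are therefore given as a description, and the tests of that contrast support nothing here.

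All mice were on the C57BL/6 background, and each library came from cells of 5 to 6 pooled hearts. The 3 control pools (WT, Egfr f/f) carried the floxed Egfr gene and are labelled WT. The 3 KO pools (Egfr mKO) carried a myeloid-specific deletion of Egfr, the epidermal growth factor receptor gene. Which promoter drove the deletion, and the age and sex of the mice, the labels do not say. Egfr itself was at 54.7, 43.0 and 44.7 CPM (read counts scaled to library size with TMM factors) in WT replicates 1 to 3 and at 18.5, 15.9 and 17.4 CPM in KO replicates 1 to 3, so the groups did not overlap. Hearts were digested with enzymes, and non-myocyte cells were enriched with beads against Cd11b. Itgam, which encodes Cd11b, was at 84.4 to 176 CPM in the 6 pools, and the macrophage gene Adgre1 was at 522 to 945 CPM. Because the tissue was read in bulk, fewer cells of a type and less RNA per cell cannot be told apart.

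Adult haemoglobin joins alpha and beta chains, each carrying a haem group. Red cell precursors make most of their globin RNA before they lose the nucleus, and young red cells in the blood, the reticulocytes, still carry it. Globin and haem genes are thus a familiar marker of blood in solid tissue. Alas2 encodes the erythroid form of the first enzyme of haem synthesis. Slc4a1 encodes band 3, the anion exchanger of the red cell membrane, and Bpgm the enzyme that makes bisphosphoglycerate, which lowers the oxygen affinity of haemoglobin. Bpgm is also expressed outside the red cell lineage.

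The paired globin genes are almost the same in their coding parts, which bears on how their reads can be counted. In the GENCODE M21 transcripts, the Hba-a1 and Hba-a2 coding sequences were identical at 425 of 426 bases (without the stop codon). They differed by C381T, counted from the first base of the start codon, with the Hba-a1 base first. Hbb-bs and Hbb-bt were identical at 440 of 441 bases and differed by C417T. The stretches around the single difference are shown with the differing base in capitals, at coding positions 351 to 411 for the alpha pair and 387 to 441 for the beta pair.
Hba-a1: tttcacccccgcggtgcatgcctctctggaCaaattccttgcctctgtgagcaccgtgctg
Hba-a2: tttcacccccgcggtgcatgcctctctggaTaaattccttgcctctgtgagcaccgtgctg
Hbb-bs: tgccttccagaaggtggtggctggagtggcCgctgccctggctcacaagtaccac
Hbb-bt: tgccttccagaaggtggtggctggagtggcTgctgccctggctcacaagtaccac
Of all windows of 100 bases in the Hba-a2 transcript, 74.5% occur unchanged in Hba-a1, and 56.5% of the Hba-a1 windows occur in Hba-a2. For Hbb-bs and Hbb-bt the shares were 62.6% and 54.8%. The labels do not give the read length. Reads that align to several places were kept apart by the authors (7.58% to 8.67% of all counted reads). Levels of all 4 globin genes are therefore lower limits, and the split within a pair rests on the unshared parts.

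The genes lie in 4 places on GRCm38. Hba-a1 (ENSMUSG00000069919, 32283511 to 32284465) and Hba-a2 (ENSMUSG00000069917, 32296489 to 32297298) sit on the plus strand of chromosome 11. Hbb-bs (ENSMUSG00000052305, 103826534 to 103828096) and Hbb-bt (ENSMUSG00000073940, 103812524 to 103813996) sit on the minus strand of chromosome 7. Alas2 (ENSMUSG00000025270) is on the X chromosome at 150547375 to 150570638, plus strand. Slc4a1 (ENSMUSG00000006574) is on chromosome 11 at 102348824 to 102366203, minus strand, and Bpgm (ENSMUSG00000038871) on chromosome 6 at 34476207 to 34505613, plus strand. Only Alas2 overlaps other annotated genes, Apex2 and Mir3620 on the opposite strand. Apex2 was counted 164 to 259 times per pool, with 231 reads in WT replicate 1.

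Promoters are shown as a description of the genes, and their part in the pool levels was not tested. The 250 bases before the RefSeq start (GRCm38.p6) were available for 6 of the 7 genes, all but Slc4a1. The capitals mark AGATAA or TGATAA, the short words CACCC and CCAAT, and also ATATAA, each on either strand, and neighbouring matches can run into each other. The windows are chr11:32296242-32296491 (plus) for Hba-a2, chr7:103827929-103828178 (minus) for Hbb-bs, chr7:103813924-103814173 (minus) for Hbb-bt, chrX:150547167-150547416 (plus) for Alas2 and chr6:34476106-34476355 (plus) for Bpgm.
Hba-a2: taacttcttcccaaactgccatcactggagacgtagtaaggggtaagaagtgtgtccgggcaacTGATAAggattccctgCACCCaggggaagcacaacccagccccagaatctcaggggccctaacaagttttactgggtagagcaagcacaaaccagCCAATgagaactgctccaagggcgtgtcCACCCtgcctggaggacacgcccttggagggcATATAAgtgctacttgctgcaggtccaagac
Hbb-bs: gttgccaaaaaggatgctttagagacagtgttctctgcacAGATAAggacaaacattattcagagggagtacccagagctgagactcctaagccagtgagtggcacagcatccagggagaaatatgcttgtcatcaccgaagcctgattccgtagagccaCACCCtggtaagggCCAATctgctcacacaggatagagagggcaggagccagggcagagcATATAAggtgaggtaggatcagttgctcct
Hbb-bt: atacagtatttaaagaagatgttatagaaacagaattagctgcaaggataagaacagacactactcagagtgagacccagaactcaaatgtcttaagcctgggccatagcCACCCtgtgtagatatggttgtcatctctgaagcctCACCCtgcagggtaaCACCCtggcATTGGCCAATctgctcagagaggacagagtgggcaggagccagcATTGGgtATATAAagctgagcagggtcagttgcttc
Alas2: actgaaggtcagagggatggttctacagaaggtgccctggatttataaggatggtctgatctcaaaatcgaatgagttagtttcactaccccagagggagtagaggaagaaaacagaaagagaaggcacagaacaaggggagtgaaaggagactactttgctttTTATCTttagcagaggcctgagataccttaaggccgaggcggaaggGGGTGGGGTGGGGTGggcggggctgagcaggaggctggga
Bpgm: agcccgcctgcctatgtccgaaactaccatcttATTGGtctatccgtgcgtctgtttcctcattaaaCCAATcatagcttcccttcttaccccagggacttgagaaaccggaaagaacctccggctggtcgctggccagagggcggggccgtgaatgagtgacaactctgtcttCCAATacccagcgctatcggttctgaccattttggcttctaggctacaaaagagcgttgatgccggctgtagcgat
The Hba-a1 window shares a run of 247 of its 250 bases with that of Hba-a2. AGATAA or TGATAA, letters that GATA factors can bind, occurred in 4 of the 6 promoters (both alpha genes, Hbb-bs and Alas2). They occurred in 16.6% of all 32851 promoter windows of the same length. CACCC, the core bound by Klf1 and related factors, occurred in 5 of 6, against 52.0% of all windows, and CCAAT in 5 of 6, against 33.8%. ATATAA occurred in the 4 globin promoters and in 9.10% of all. The longer CCACACCC was found in Hbb-bs alone of the 6 (3.20% of all). Bpgm held CCAAT 3 times and none of the other words. These matches describe the letters and show no binding.

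The beta-globin gene Hbb-bs had the highest level per exon length of the 7 genes in every pool. It was at 1103 CPM in WT replicate 1, 45.9 in WT replicate 2 and 85.8 in WT replicate 3, and at 20.2, 35.3 and 53.4 CPM in KO replicates 1, 2 and 3. WT replicate 1 stood far above the rest, and among the other 5 pools WT and KO overlapped. Hbb-bt was at 140, 5.16 and 9.31 CPM in WT replicates 1 to 3 and at 2.60, 3.10 and 4.58 CPM in the KO pools. For Hbb-bt every WT pool lay above every KO pool, as for 10.1% of all genes tested. Its exact Poisson 95% intervals for counting error overlapped between WT replicate 2 (4.19 to 6.28 CPM) and KO replicate 3 (3.79 to 5.49 CPM).

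The alpha-globin genes had the same highest pool and the same lowest pool. Hba-a1 was at 436, 17.7 and 33.7 CPM in WT replicates 1 to 3 and at 9.93, 17.1 and 20.2 CPM in KO replicates 1 to 3. Hba-a2 was at 84.3, 3.60 and 5.68 CPM in WT and at 1.38, 1.65 and 3.84 CPM in KO. WT replicate 3 was second and KO replicate 1 last for each of the 4 globin genes. WT replicate 2 lay below KO replicate 3 for Hba-a1, Hba-a2 and Hbb-bs.

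The haem synthesis gene Alas2 was at 113 CPM in WT replicate 1, 3.13 in WT replicate 2 and 7.31 in WT replicate 3, and at 2.10, 2.12 and 2.68 CPM in the KO pools. Its levels in WT replicates 2 and 3 lay above the KO range, as for 21.6% of all genes tested without WT replicate 1. The exact Poisson 95% intervals of WT replicate 2 (2.39 to 4.03 CPM) and KO replicate 3 (2.08 to 3.39 CPM) overlapped. Bpgm was at 47.7 CPM in WT replicate 1 and between 8.86 and 11.3 CPM in the other 5 pools, with WT and KO mixed. These 5 Bpgm values spanned 1.28-fold, while those of the 4 globins and Alas2 spanned 3.39-fold to 4.25-fold.

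The membrane gene Slc4a1 was counted 90 times in WT replicate 1, 5 times in WT replicate 2, 9 times in WT replicate 3 and 0 times in each KO pool. In CPM it was at 3.46, 0.261 and 0.419 in WT. A count of 0 was given a floor of 3 reads, 0.116 CPM on average in a KO library. The mean of WT replicates 2 and 3 was 2.92-fold this floor, leaving aside the counting error of their 5 and 9 reads. For WT replicate 2 the exact Poisson 95% interval was 0.0846 to 0.608 CPM and so began below the floor. Set against globin RNA, Slc4a1 had 1.96 reads per 1000 globin reads in WT replicate 1 (exact Poisson 95% interval 1.58 to 2.41). The ratio was 3.60 in WT replicate 2 (1.17 to 8.41) and 3.12 in WT replicate 3 (1.43 to 5.92). Taken singly, KO replicates 1 to 3 had upper bounds of 4.14, 2.53 and 1.74 per 1000, all inside or above the interval of WT replicate 1. Summed, the KO pools had 0 Slc4a1 reads beside 4462 globin reads, an upper bound of 0.827 per 1000, below the lower bounds of the 3 WT pools. That bound covers counting error only and takes the KO pools as 1 sample.

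**Figure D1:**
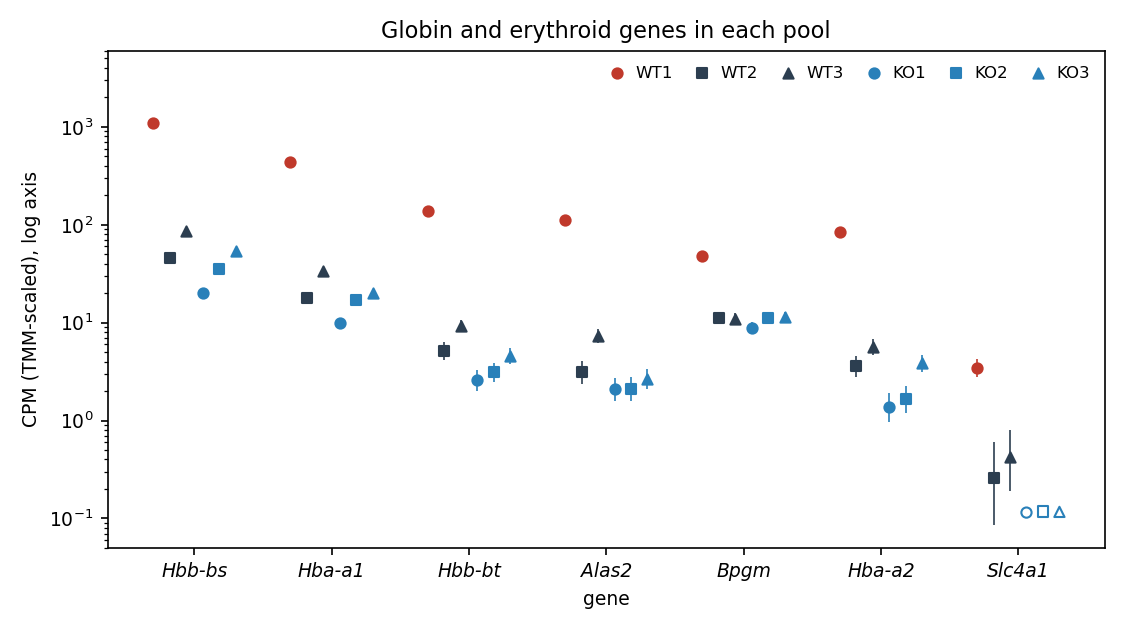
Level of each globin and erythroid gene (CPM after TMM scaling, log axis) in each of the 6 pools, with exact Poisson 95% intervals for counting error. WT replicate 1 (red) is highest for all 7 genes, from 1103 CPM for Hbb-bs to 3.46 CPM for Slc4a1, and open symbols mark pools with 0 reads drawn at the level of 3 reads. WT1 stands for WT replicate 1, and so on.

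Summed over the 4 genes, globin made up 0.169% of reads in genes in WT replicate 1 (45839 reads). The share was 0.00781% in WT replicate 2 and 0.0135% in WT replicate 3. In KO replicates 1, 2 and 3 it was 0.00325%, 0.00578% and 0.00814%. Exact binomial 95% intervals were narrow, from 0.00304% to 0.00347% in KO replicate 1 and from 0.168% to 0.171% in WT replicate 1. Intervals here cover counting error only, since reads without molecular identifiers are not independent molecules. WT replicate 1 held 84.0% of all globin reads of the series. Its globin level of 1764 CPM was 13.1-fold that of the next pool, WT replicate 3 (134 CPM), and 51.8-fold that of the lowest, KO replicate 1 (34.1 CPM). In ascending order the pools were KO replicate 1, KO replicate 2 (57.2 CPM), WT replicate 2 (72.4), KO replicate 3 (82.1), WT replicate 3 and WT replicate 1. Without WT replicate 3 the next pool was KO replicate 3, at a ratio of 21.5.

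The make-up of globin RNA varied far less between pools than its amount. Alpha-globin was 29.5% of globin reads in WT replicate 1 and 29.4%, 29.3% and 29.3% in WT replicate 2, WT replicate 3 and KO replicate 3. It was 33.2% in KO replicate 1 (exact binomial 95% interval 30.1 to 36.4) and 32.8% in KO replicate 2 (30.4 to 35.3). Both intervals lay above that of WT replicate 1 (29.1 to 29.9). Scaled to exon length, the summed beta level was 2.10 to 2.50 times the summed alpha level in the 6 pools. This ratio sets uniquely aligned reads against the full exon length, so it also depends on how much sequence each pair shares.

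Within the pairs, the share of the gene with fewer counted reads differed between some pools beyond counting error. Hba-a2 gave 16.2% of alpha reads in WT replicate 1 and 12.2% to 16.9% in 4 other pools, but 8.79% in KO replicate 2 (6.41 to 11.7). Hbb-bt gave 11.2% of beta reads in WT replicate 1 (10.9 to 11.6). The shares were 10.1% in WT replicate 2, 9.79% in WT replicate 3 and 11.4% in KO replicate 1, and they were lower in KO replicate 2 (8.08%, 6.45 to 9.97) and KO replicate 3 (7.90%, 6.58 to 9.38).

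Alas2 had 63.8 reads per 1000 globin reads in WT replicate 1 (exact Poisson 95% interval 61.5 to 66.2). The ratio was 43.2 in WT replicate 2, 54.4 in WT replicate 3, 61.7 in KO replicate 1, 37.1 in KO replicate 2 and 32.6 in KO replicate 3. The intervals of WT replicate 3 (46.2 to 63.6) and KO replicate 1 (46.5 to 80.3) overlapped that of WT replicate 1, and the other 3 lay below it. Bpgm went the other way, with 27.0 reads per 1000 globin reads in WT replicate 1 and 81.4 to 260 in the others.

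**Figure D2:**
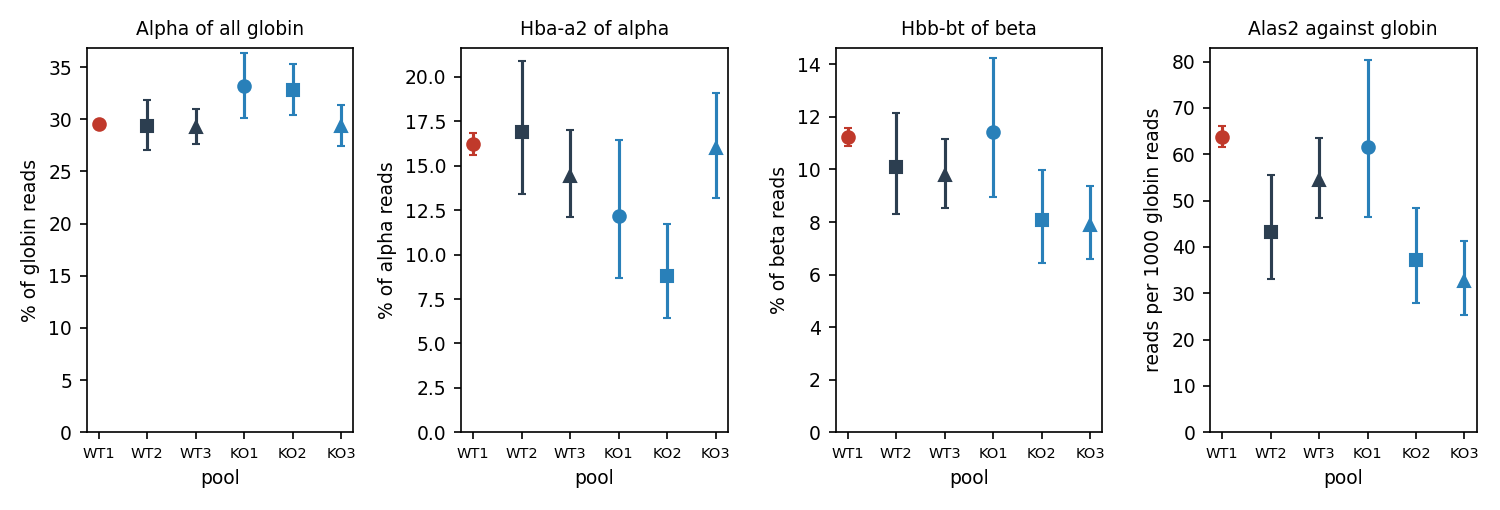
Share of alpha-globin in all globin reads, of Hba-a2 in alpha reads and of Hbb-bt in beta reads (percent), and Alas2 reads per 1000 globin reads, by pool, with exact 95% intervals for counting error (binomial for shares, Poisson for Alas2). Alpha-globin stays between 29.3% and 33.2% in all 6 pools although the globin level spans 34.1 to 1764 CPM.

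The excess in WT replicate 1 was narrow. Among 13371 genes with at least 50 reads in any pool, 9 (0.0673%) were at least 4-fold higher in WT replicate 1 than in the highest other pool. All 7 genes of the list were among them, as their choice implies, from 4.21-fold for Bpgm and 8.26-fold for Slc4a1 to 15.4-fold for Alas2. The antibody segment Igkv4-51 was also among them (2.42 CPM against 0.194 CPM at most). Igkv4-51 and Mpo are named by this ranking, after their values were seen. Next under the line was the granule gene Mpo of young myeloid cells, at 3.30-fold with 3.27 CPM in WT replicate 1. The counterpart for the other pools, genes at least 4-fold above all others, was 14 genes for WT replicate 2 and 1 to 4 genes for each of the remaining pools.

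**Figure D3:**
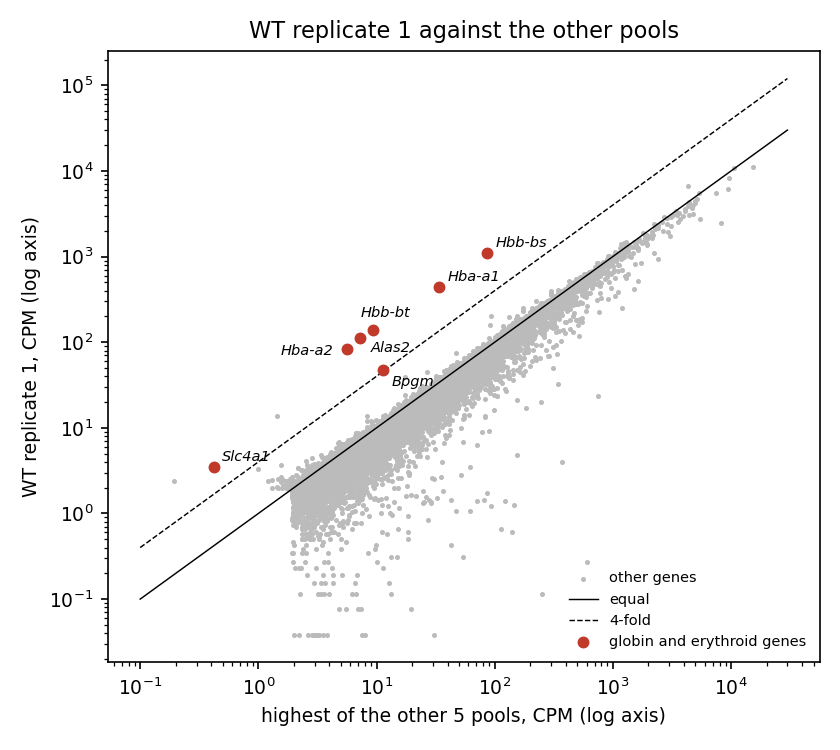
Level in WT replicate 1 against the highest of the other 5 pools (CPM, log axes) for 13358 of the 13371 genes with at least 50 reads in any pool, those above 0 on both axes. The 7 globin and erythroid genes (red) are among the 9 genes on or above the dashed 4-fold line.

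WT replicate 1 also differed from most pools in sex-linked RNA. The summed level of the Y-linked genes Ddx3y, Kdm5d, Uty and Eif2s3y was 240 CPM there and 234 CPM in KO replicate 1, and at most 0.938 CPM in the other 4 pools. Xist, which is transcribed from the inactive X chromosome, was at 0.269 and 0.153 CPM in those 2 pools and at 344 to 602 CPM in the others. The pools with Y-linked RNA were thus the highest and the lowest of the 6 in globin. Alas2 is X-linked, and its level followed the globins. The part of sex in the globin levels was not tested.

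With all 6 pools the genotype contrast had large negative values with wide errors. Of the 7 genes, 6 passed the expression filter and Slc4a1 did not. The log2 fold changes (KO against WT) were -3.50 (SE 1.15) for Hbb-bs, -3.91 (SE 1.20) for Hbb-bt, -3.37 (SE 1.13) for Hba-a1, -3.77 (SE 1.20) for Hba-a2, -4.16 (SE 1.26) for Alas2 and -1.16 (SE 0.55) for Bpgm. Their median was -3.64, beside 0.01 over all 15707 genes tested. In edgeR 0 of the 6 passed in either direction, where 0.0127% of all genes passed as lower, and 5 of the 6 were lower at an unadjusted p under 0.05 (10.6% of all genes). Adjusted p-values ran from 0.227 to 0.366. DESeq2 called Alas2 and Slc4a1 lower of the 5 genes to which it gave an adjusted p (4.45% of all genes lower and 1.15% higher), and edgeR without its filter called 6 of 7 lower, all but Bpgm (2.22% of all genes lower and 0.479% higher). Since WT replicate 1 is in this contrast, nothing is read from these counts. In WT the SD exceeded the mean for each of the 4 globins, as for Hbb-bs with 412 ± 599 CPM against 36.3 ± 16.6 CPM in KO (SD, n = 3 each).

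Leaving out WT replicate 1 gives a comparison without the pool for which the genes were chosen. Earlier results of these data were known at that choice, so this comparison is not fully separate from it. The log2 fold changes were then -0.86 (SE 0.40) for Hbb-bs, -1.07 (SE 0.35) for Hbb-bt, -0.70 (SE 0.35) for Hba-a1, -1.01 (SE 0.47) for Hba-a2, -1.18 (SE 0.38) for Alas2 and -0.08 (SE 0.18) for Bpgm. Their median was -0.93. In edgeR 0 of 6 passed in either direction, with adjusted p-values from 0.105 (Hbb-bt) to 0.840 (Bpgm), where 5.97% of all 16116 genes passed as lower. Of the 6, Hbb-bt and Alas2 were lower at an unadjusted p under 0.05, as were 14.4% of all genes. DESeq2 called 1 of the 6 genes with an adjusted p lower, Hbb-bt (adjusted p = 0.0460), where 9.38% of all genes were called lower and 5.67% higher. Without the expression filter edgeR called 6 of 7 lower, all but Bpgm, where 6.96% of all genes were called lower and 3.54% higher. Without the filter the log2 fold change of Hbb-bs was -0.85, with a smaller SE of 0.16. The call for the globins without WT replicate 1 thus depends on the filter and, for Hbb-bt, on the method, while the fold changes hardly differ.

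**Figure D4:**
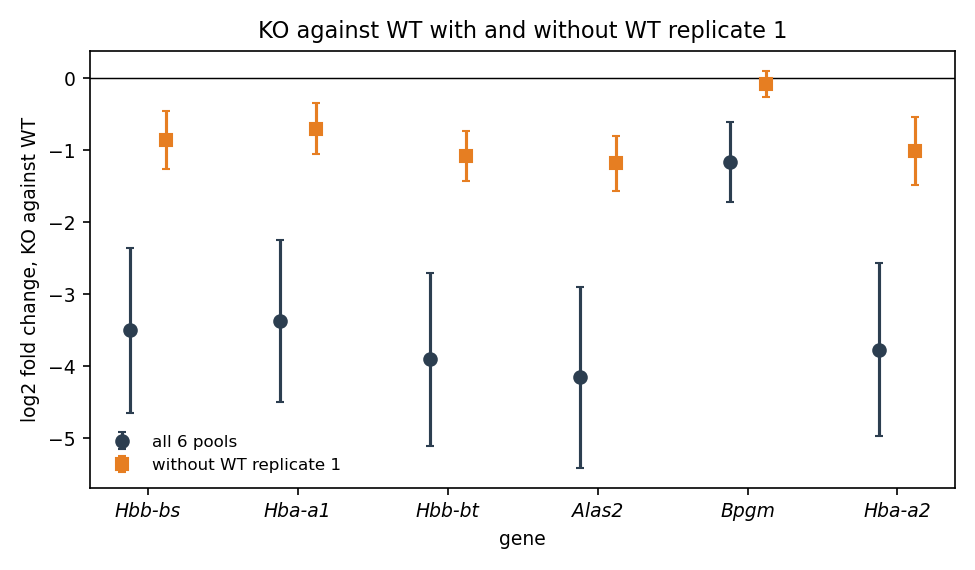
Log2 fold change of KO against WT with its standard error, for the 6 genes that passed the expression filter, with all 6 pools (circles) and without WT replicate 1 (squares). Leaving out that pool moves the 4 globins and Alas2 from between -4.16 and -3.37 to between -1.18 and -0.70, and Bpgm from -1.16 to -0.08.

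Every WT pool lay above every KO pool for Hbb-bt and Alas2 of the 6 tested genes, and for Slc4a1, which was not tested. Of all genes tested, 10.1% had that order. Without WT replicate 1 the same 2 genes kept it, beside 21.6% of all genes. Among the 4 pools with Xist, 0 of 6 passed in edgeR in either direction (2.18% of all genes lower), and 2 were lower at an unadjusted p under 0.05 (13.3% of all genes). There the summed globin level was 72.4 and 134 CPM in WT replicates 2 and 3 and 57.2 and 82.1 CPM in KO replicates 2 and 3, so the groups overlapped.

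Other markers of the red cell lineage were sparse. Of 12 other globin genes listed, 10 were in the files and 4 of these had 0 reads in every pool, among them the embryonic chains Hba-x and Hbb-y. Hbq1a and Hbq1b, the theta chains beside the alpha genes, had 4 and 5 reads in WT replicate 1 and at most 1 read elsewhere. Myoglobin (Mb), the oxygen store of muscle cells, was at 48.9 CPM in WT replicate 1, 68.1 and 72.3 CPM in WT replicates 2 and 3 and 30.9 to 54.7 CPM in KO. Cygb, a globin of fibroblast-like cells, was at 64.6 CPM in WT replicate 1 and 243 CPM in WT replicate 3. Mb and Cygb did not share the peak in WT replicate 1. In edgeR 0 of the 2 tested genes of the list passed with all 6 pools, and DESeq2 called 0. Both were lower at an unadjusted p under 0.05 (10.6% of all genes). Without WT replicate 1 Cygb passed as lower (log2 fold change -1.36, edgeR adjusted p = 0.0185), as did 5.97% of all genes. The fibroblast list had a median of -1.41 in the same fit, with 10 of 10 genes passing as lower. Its part in the Cygb value was not tested.

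Among 18 red cell membrane genes, the most abundant were Aqp1, Epb41, Slc2a1 and Tmod1, which other heart cells also express. Of the 18, 12 were tested in edgeR and 0 passed with all 6 pools (median log2 fold change -0.18). At an unadjusted p under 0.05, 2 were lower (10.6% of all genes) and 0 higher (4.77% of all genes). DESeq2 called 1, Aqp1, as lower (4.45% of all genes). Without WT replicate 1 only the water channel Aqp1 of the 12 passed, as lower (-1.14, edgeR adjusted p = 0.0315), as did 5.97% of all genes. Endothelial cells express Aqp1 strongly, and the 12 endothelial markers had a median of -1.24 in the same fit. The part of endothelial RNA in the Aqp1 value was not tested. Genes nearly limited to red cells were named after their values were seen. The blood group gene Kel had 8 reads in WT replicate 1 and 0 in each other pool, and the membrane protein gene Epb42 had 14 there and 0 or 1 elsewhere. Rhag had 0 reads in every pool. The blood group gene Rhd had no peak there, with 1, 9 and 2 reads in WT replicates 1 to 3 and 0 in each KO pool.

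Genes of haem synthesis other than Alas2 did not follow the globins. All 12 were tested and 0 passed in either direction, with or without WT replicate 1 (edgeR medians 0.09 and 0.19). In both fits 0 had an unadjusted p under 0.05, and DESeq2 with all 6 pools called 0. Alas1, the housekeeping isoenzyme of Alas2, was at 58.2 CPM in WT replicate 1 and 41.5 to 57.7 CPM in the others. Ferrochelatase (Fech), the last enzyme, was at 45.5 CPM there and 31.8 to 37.4 CPM elsewhere. Slc25a37, which carries iron into mitochondria, was at 70.1 CPM and Tfrc, the transferrin receptor, at 67.7 CPM in WT replicate 1, both within the range of the other pools.

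The transcription factors that drive red cell precursors were near 0. Gata1 had 0 to 2 reads per pool, with 1 in WT replicate 1, and Klf1 had 3 reads there and 0 to 2 elsewhere. Factors shared with other blood and vessel cells were present at like levels, as with Ldb1 (111 to 132 CPM), Lmo2 (66.0 to 109 CPM) and Tal1 (14.1 to 22.1 CPM). Of 10 genes in this list 8 were tested and 0 passed with all 6 pools in edgeR, and DESeq2 called 0. At an unadjusted p under 0.05, 1 was lower (10.6% of all genes) and 1 higher (4.77% of all genes). Without WT replicate 1 only the cofactor Zfpm1 of the 8 passed, as lower (-0.79, edgeR adjusted p = 0.0254), as did 5.97% of all genes.

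In WT replicate 1 the 15 genes tied to reticulocyte maturation summed to 620 CPM, against 448 to 559 CPM in the other pools. Mkrn1 (119 CPM against 80.3 to 117 CPM), Prdx2, Tent5c and Blvrb were the most abundant. In edgeR 0 of 11 tested genes passed with all 6 pools, and DESeq2 called 0. At an unadjusted p under 0.05, 1 was lower (10.6% of all genes) and 0 higher (4.77% of all genes). Without WT replicate 1 only Blvrb of the 11 passed, as higher (0.64, edgeR adjusted p = 0.0453), as did 2.33% of all genes. Trim10, named after its values were seen, had 30 reads in WT replicate 1 and 1 to 8 elsewhere. Other genes with few reads, also named after their values were seen, did not all share that peak. Hemgn had 2, 24 and 0 reads in WT replicates 1 to 3 and 0 to 5 in KO. Car1 had 1 read in WT replicate 1, 3 in KO replicate 3 and 0 elsewhere. Trim58 had 2 reads in WT replicate 1 and 0 elsewhere.

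Genes of haem uptake and breakdown, which macrophages use to recycle red cells, were mixed. Against 6084 to 9386 CPM in the other pools, they summed to 9857 CPM in WT replicate 1. Hmox1, which opens the haem ring and is named after its values were seen, was at 1251 CPM there, 1143 CPM in KO replicate 3 and 415 to 1002 CPM in the other 4 pools. The haemoglobin scavenger receptor Cd163 was at 1397 CPM, against 784 to 1179 CPM. The ferritin chains Fth1 (3268 CPM) and Ftl1 (2189.8 CPM) lay within the range of the KO pools. Lrp1, a receptor that takes up haem bound to haemopexin, was at 1114 CPM in WT replicate 1, below WT replicates 2 and 3 (1489.8 and 1289 CPM) and KO replicate 2 (1165 CPM). In edgeR 0 of 10 passed with all 6 pools, and DESeq2 called 0. At an unadjusted p under 0.05, 0 were lower (10.6% of all genes) and 1 higher (4.77% of all genes). Without WT replicate 1 Slc11a1, a metal transporter of phagosomes, passed as higher (0.65, edgeR adjusted p = 0.0495). Resident macrophage markers were higher in the same KO pools, with 8 of 12 passing in that fit (2.33% of all genes passed as higher).

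Other blood cell lists did not share the size of the red cell excess. The platelet list summed to 433 CPM in WT replicate 1, inside the range of the other pools (244 to 470 CPM), but Pf4, which resident macrophages also express, made up most of it. Without Pf4 it summed to 55.6 CPM in WT replicate 1, 45.4 and 38.9 CPM in WT replicates 2 and 3 and 20.5 to 32.7 CPM in KO. The neutrophil list summed to 2630 CPM in WT replicate 1 and was higher in KO replicate 1, at 3270 CPM. Its granule genes Ltf, Camp and Ngp, made by young neutrophils, summed to 400.0 CPM in WT replicate 1 and 202 CPM in WT replicate 2, against 34.4 to 62.5 CPM in the other 4 pools. Monocyte genes summed to 3411 CPM in WT replicate 1 and 2322 to 3115 CPM elsewhere. The B cell sum of 1207 CPM was inside the range of the others (1027 to 1861 CPM), and the T cell sum of 30.1 CPM was the lowest of the 6. With all 6 pools 0 genes of these 5 lists passed in edgeR. At an unadjusted p under 0.05, 3 platelet, 3 neutrophil and 1 monocyte genes were lower (10.6% of all genes), 1 platelet and 6 B cell genes were higher (4.77% of all genes), and 0 T cell genes were either. DESeq2 called 2 platelet genes and 1 monocyte gene lower (4.45% of all genes) and 3 B cell genes higher (1.15% of all genes). In the edgeR fit without WT replicate 1, Pf4 passed as higher (0.88, adjusted p = 0.0270), as did 2.33% of all genes. The platelet gene Alox12 (-1.33, adjusted p = 0.0222) and the monocyte gene Ace (-0.62, adjusted p = 0.0383) passed as lower in that edgeR fit, as did 5.97% of all genes. Of the neutrophil, B cell and T cell lists 0 genes passed there.

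**Figure D5:**
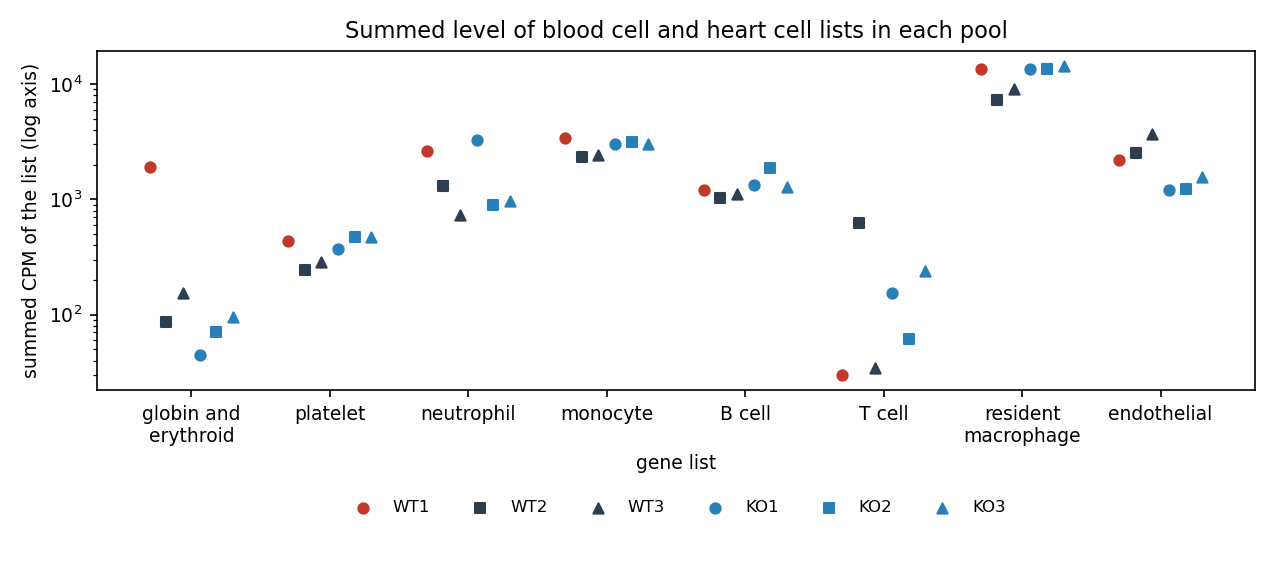
Summed level of each gene list (CPM, log axis) in each pool, for the 7 globin and erythroid genes, 5 blood cell lists and 2 heart cell lists. WT replicate 1 (red) is 12.6-fold above the next pool for the globin and erythroid list and inside or within 1.10-fold of the range of the other pools for platelets, neutrophils, monocytes, B cells, macrophages and endothelial cells, and the lowest for T cells.

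In the heart cell lists WT replicate 1 often stood apart from the other WT pools. Its endothelial sum of 2207 CPM lay below the other WT pools (2548 and 3693 CPM) and above the KO pools (1204 to 1577 CPM). Its macrophage sum of 13426 CPM lay near those of the KO pools (13488 to 14299 CPM) and above the other WT pools (7290 and 9073 CPM). Its fibroblast sum of 4547 CPM lay within the KO range (3911 to 5389 CPM) and below the other WT pools (9518 and 14768 CPM). Its cardiomyocyte sum of 335 CPM lay within the KO range (257 to 458 CPM) and below the other WT pools (517 and 578 CPM). The part of cell make-up in the globin levels was not tested.

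Likeness to the globins was measured as Pearson's r across the 6 pools between log2 CPM of a gene and of the summed globins, over 1354 genes with a log2 range of at least 2. The points share library, depth and 1 dominant pool, so r is a description. Among the list, r was 0.99 for Alas2 and 0.97 for Bpgm, and without WT replicate 1 it was 0.87 and 0.75. Among the 10 other named genes with the highest r were Lin7a (0.95), Tmprss5 (0.85), the platelet glycoprotein gene Gp5 (0.78), the neutrophil granule genes Ltf (0.72), Camp (0.71) and Ngp (0.70), and Necab2, Ttll11 and Hipk4 (0.69 to 0.72). Lin7a, Tmprss5, Necab2 and Hipk4 stayed under 1 CPM in every pool. Without WT replicate 1 r was 0.07 for Ltf, -0.09 for Camp, -0.18 for Ngp and -0.24 for Gp5, so the likeness of these 4 rests on that pool.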

How the data were processed

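RNA was measured in 6 pooled heart cell preparations. The deposited values are whole-number read counts per Ensembl gene, not normalized by the authors. Per the submitters' processing notes, the tools were STAR, HTSeq and DESeq2 with the build GRCm38. Tool versions, annotation release and the strand setting of the counting: not given in the sources used here. Per the labels' protocols, RNA was isolated with RNeasy and libraries were made with the NEBNext Ultra II Directional kit. Reads in genes ranged from 17780707 to 27485129 per library. Counters that name no gene were left out: reads outside genes made up 5.90% to 8.62%, ambiguous reads 1.49% to 1.72%, and multiply aligned reads 7.58% to 8.67%, of all counted reads. The sample titles list 5 or 6 ids for each pool, and no id is listed for more than 1 pool. Beyond this the labels say only that the pools are separate samples, and p-values rest on the variation among these pools alone.

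Of 55487 identifiers 55141 had a symbol. Positions and exon lengths are from GENCODE M21, and promoters from RefSeq. KO was compared with WT by edgeR 4.0.16 in R 4.3.3 (filterByExpr with minimum count 10, TMM, quasi-likelihood F test, two-sided, Benjamini-Hochberg over all genes, threshold 0.05). Standard errors were taken as the absolute log2 fold change divided by the root of F. DESeq2 1.42.0, other scalings, other filters, the replicate number as a block and leaving out libraries were alternatives. Fits with WT replicate 1 left out by DESeq2 or without a filter, the fit of the 4 pools with Xist and the globin ratio on leaving out a library were added after seeing the data. A simulation of the KO and WT libraries (15707 genes) had 100 genes altered 2-fold, of which edgeR found 47. Of another 100 altered 4-fold it found 96, and no call had the wrong direction. It also called 6 unaltered genes. All genes were drawn with 1 common dispersion and no outlying pool, so the shares found do not give the power in the real libraries. The members and lists were chosen with earlier results of these data known. Named genes were the members, from each other list the 4 most abundant and any that passed, and the 10 genes most like the globins, with exceptions marked, and some genes that these rules name are not reported here. Figures were drawn with matplotlib 3.10.9.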

Additional observations from a re-analysis of the deposited data

How the results depend on the processing

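Every log2 fold change of the 6 tested genes stayed negative under all alternatives that gave an adjusted p, 94 values in all. The call changed from not passing to passing in 12 of them, in edgeR without its filter (with and without WT replicate 1) and in DESeq2, and in 82 it stayed. The number of the listed genes called lower was 0 with all 6 pools. It was 2 with DESeq2, 6 without the filter, 1 with DESeq2 and 6 without the filter when WT replicate 1 was left out, and 0 in each of the other settings, the leave-one-out fits included. Over all genes, 0 were higher and 2 lower. DESeq2 called 172 higher and 664 lower, edgeR without its filter 139 and 643, the 4 pools with Xist 63 and 344, DESeq2 without WT replicate 1 889 and 1470, and edgeR without both the filter and WT replicate 1 1002 and 1969. Leaving out 1 library gave 0 to 376 higher and 1 to 962 lower, with both highest counts without WT replicate 1. The cause of these shifts was not tested. The ratio of globin in WT replicate 1 to the next pool was 13.1 and became 12.5 with no scaling beyond library size, and 13.1 to 21.5 on leaving out 1 other library. With all counted reads as the base, its globin share was 0.140%.

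The replicate numbers are not shown to pair the pools. Deviations from the group means of same-numbered pools correlated at 0.10, -0.16 and 0.01 across genes. When edgeR used this number as a block (replicate block), it called 2 genes higher and 1 lower over all genes and 0 of the 6 listed genes, whose median log2 fold change was -2.13. Slc4a1 and the other genes with few reads are limited by depth.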
